A study of Macaca mulatta with 24 samples.

Results

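Junction scaffold and adhesion genes were followed in the colon of rhesus macaques after total-body irradiation (TBI), in which the entire body receives 1 uniform dose of gamma rays. The members were picked by gene name, from a list drawn up with earlier results of these data known: the tight junction membrane proteins OCLN, MARVELD2 and F11R, the tight junction scaffolds TJP1, TJP3 and CGN, the adherens junction genes CDH1 and CTNNB1, and the desmosomal cadherin DSG2. Of these 9 genes, 7 were named on the array, by 11 probes among 38234 probes tested, which stood for 13463 named genes. TJP1 and CDH1 had no probe of that name and were not analysed here. The probe of CGN carried an older locus name, LOC710830, whose gene number is that of CGN. Young-adult male animals were sham-irradiated or received 6.7 or 7.4 Gy from a cobalt-60 source. A colon segment of about 3 cm was taken, and a small amount of whole gut tissue was used for RNA. The layers of the wall were thus not separated. The groups were 4 unirradiated controls labelled day 4, 4 animals per dose on day 4, 4 per dose on day 7 and 2 per dose on day 12, with 1 array per animal. The same 4 controls served every day.

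Epithelial cells of the colon are held together by junctions that form belts and spots along their sides. Tight junctions lie nearest the lumen and limit what passes between cells, adherens junctions below them couple cadherins to the actin cytoskeleton through catenins, and desmosomes couple other cadherins to keratin filaments. Scaffold proteins under the membrane tie the strand proteins to actin and to polarity complexes.

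Values are log2 signals relative to the 75th percentile of the same array, so a value of 0 lies at that percentile and a difference of 1 is 2-fold. All 11 junction probes were well above background on every array, beside 66.74% to 85.02% of all probes per array. A gene passed the test at an adjusted p under 0.05 in a limma model over all probes, with Benjamini-Hochberg adjustment. Array position overlapped with group: controls lay at position 1 of a slide, 6.7 Gy day 4 at positions 1 and 2, 7.4 Gy day 4 at position 2, and the day-7 and day-12 groups at positions 3 and 4. The arrays were scanned on 2 days, and all 7.4 Gy day-4 arrays on the second.

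On day 4 the transcripts of several junction genes were lower than in the controls. None of the 7 was higher by the test on the probe with the highest mean, which stood for the gene. After 6.7 Gy, OCLN, TJP3 and CGN fell, which is 3 of 7 against 5.77% of all named genes that fell in that comparison. After 7.4 Gy, OCLN, TJP3, CGN, MARVELD2 and DSG2 fell, which is 5 of 7 against 11.6% of all named genes. F11R and CTNNB1 did not pass at either dose on those probes, although a second CTNNB1 probe was higher after 6.7 Gy, as given below. With the 2-fold change that the study also required, 1 gene was left after 6.7 Gy, TJP3, against 4.31% of all named genes in either direction, and 2 after 7.4 Gy, OCLN and TJP3, against 8.24%. The median log2 change of the 7 genes was -0.26 after 6.7 Gy and -0.75 after 7.4 Gy, beside -0.04 and -0.02 over all named genes. In bulk tissue, fewer cells of a type and less RNA per cell cannot be told apart.

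**Figure D1:**
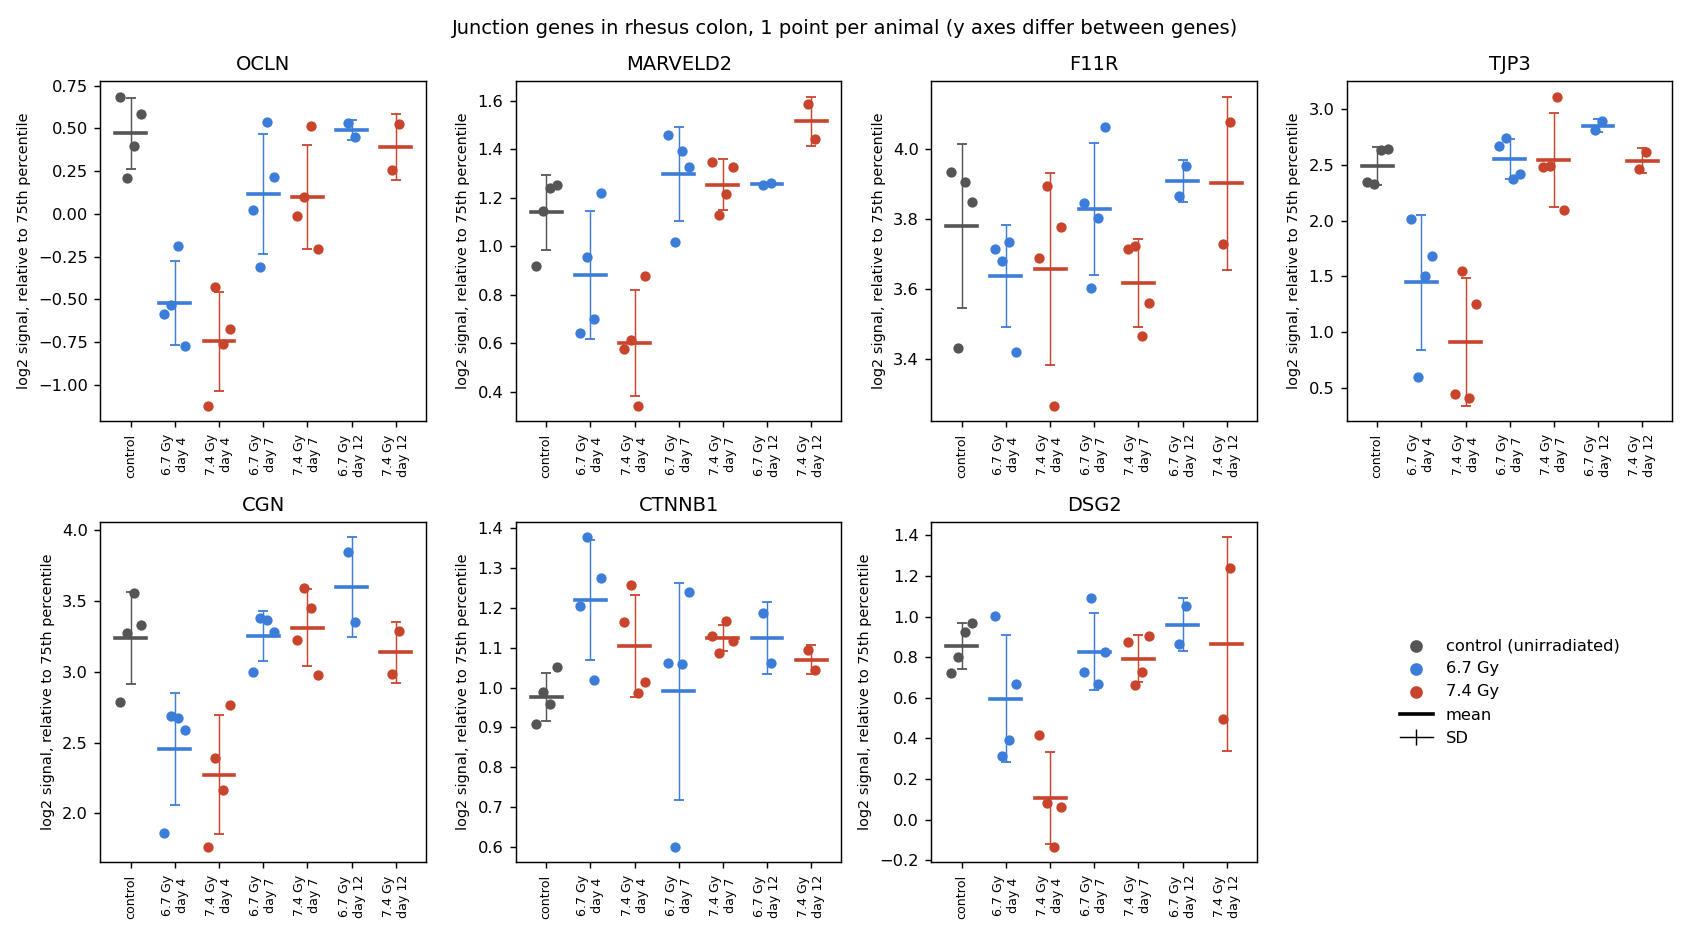
Log2 signal of each junction gene relative to the 75th percentile of its array, 1 point per animal, by group, with the group mean (line) and SD (whiskers); n = 4 per group and 2 on day 12, and the y axes differ between genes. OCLN, TJP3 and CGN lay below the controls in all 8 day-4 animals, whereas F11R and CTNNB1, on the probes shown, overlapped with the controls at both doses. How many of all named genes lay apart in this way was not counted.

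Among the membrane proteins, OCLN encodes occludin, a multi-pass component of tight junction strands. Its controls read 0.69, 0.21, 0.40 and 0.59 (0.47 ± 0.21, SD, n = 4). The 6.7 Gy day-4 animals read -0.59, -0.53, -0.19 and -0.77, and the 7.4 Gy day-4 animals -1.12, -0.42, -0.76 and -0.67. All 8 irradiated animals of that day lay below all 4 controls. The log2 change was -0.99 after 6.7 Gy (95% confidence interval -1.40 to -0.58, adjusted p = 0.00458, limma), a 1.99-fold lower level, and -1.22 after 7.4 Gy (-1.62 to -0.81, adjusted p = 0.000352, limma), a 2.32-fold lower level. Day-7 animals read 0.03, -0.31, 0.53 and 0.22 after 6.7 Gy and -0.01, 0.10, 0.51 and -0.20 after 7.4 Gy, and day-12 animals 0.53 and 0.45, and 0.25 and 0.53. Those of day 7 overlapped with the controls and with the day-4 animals, and those of day 12 lay inside the range of the controls. OCLN had the lowest change of the 7 genes on day 7, at -0.35 after 6.7 Gy (-0.76 to 0.05) and -0.37 after 7.4 Gy (-0.78 to 0.03), neither of which passed (adjusted p = 0.590 and 0.494, limma).

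A second, dimmer OCLN probe gave a log2 change of -0.85 after 6.7 Gy, which did not pass (adjusted p = 0.0856, limma), and -1.26 after 7.4 Gy, which did (adjusted p = 0.00780, limma). On that probe too the day-4 animals of both doses, between -2.54 and -1.46, lay below all controls, between -1.29 and -0.67.

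MARVELD2 encodes tricellulin, which seals the corners where neighbouring cells meet. Controls read 0.92, 1.15, 1.24 and 1.25 (1.14 ± 0.16, SD, n = 4). On day 4 the values were 0.64, 0.96, 0.70 and 1.22 after 6.7 Gy and 0.58, 0.61, 0.34 and 0.88 after 7.4 Gy. The lower dose overlapped with the controls and the higher did not, although its highest animal lay only just under the lowest control. The log2 change was -0.26 after 6.7 Gy (-0.56 to 0.04, adjusted p = 0.264, limma) and -0.54 after 7.4 Gy (-0.84 to -0.24, adjusted p = 0.0129, limma), a 1.45-fold lower level. Without replicate 3 of the 7.4 Gy group the change was -0.45 (adjusted p = 0.0504, limma). It was -0.40 with normexp background correction (adjusted p = 0.164) and -0.25 with scaling to the spike-in probes (adjusted p = 0.354), neither past the test in limma. Later animals read between 1.02 and 1.59. On day 12 after 7.4 Gy both animals, at 1.59 and 1.44, were above every control, with a log2 change of 0.37 (0.01 to 0.74) whose adjusted p was 0.713 (limma).

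F11R encodes JAM-A, an immunoglobulin-like adhesion protein of tight junctions. Its group means lay between 3.62 and 3.91, with log2 changes between -0.16 and 0.13 against the controls over the 6 irradiated groups. The lowest adjusted p was 0.592 (limma). The 95% intervals on day 4, -0.46 to 0.17 after 6.7 Gy and -0.44 to 0.19 after 7.4 Gy, leave out a 2-fold fall. Its other probes gave 0.05 and -0.16 after 6.7 Gy on day 4, and -0.30 and -0.54 after 7.4 Gy, with adjusted p of 0.510 and 0.0883 for the latter (limma).

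Of the scaffolds, TJP3 encodes ZO-3, which binds the tails of strand proteins, and it had the lowest change of the 7 genes on day 4 at both doses. Controls read 2.35, 2.33, 2.63 and 2.64 (2.49 ± 0.17, SD, n = 4). The 6.7 Gy day-4 animals read 2.01, 0.60, 1.50 and 1.68, and the 7.4 Gy day-4 animals 0.44, 1.54, 0.40 and 1.25. The spread within the irradiated groups was wide, yet no animal reached the lowest control. The log2 change was -1.04 after 6.7 Gy (-1.63 to -0.46, adjusted p = 0.0241, limma), a 2.06-fold lower level, and -1.58 after 7.4 Gy (-2.16 to -1.0, adjusted p = 0.000779, limma), a 2.99-fold lower level. After 6.7 Gy the change was -0.76 without replicate 2 of that group (adjusted p = 0.0764, limma) and -0.99 without control replicate 3 or 4 (adjusted p = 0.0585 and 0.0604, limma). On day 7 the values were 2.67, 2.74, 2.37 and 2.42 after 6.7 Gy and 2.48, 2.49, 3.12 and 2.10 after 7.4 Gy, and on day 12 they were 2.82 and 2.89, and 2.46 and 2.62. The means of days 7 and 12 lay between 2.54 and 2.85, within or above the range of the controls.

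CGN encodes cingulin, a scaffold that ties tight junctions to actomyosin. Controls read 2.79, 3.28, 3.56 and 3.33 (3.24 ± 0.33, SD, n = 4). Day-4 animals read 1.86, 2.69, 2.68 and 2.59 after 6.7 Gy and 1.76, 2.39, 2.16 and 2.77 after 7.4 Gy. All 8 lay below the lowest control, the highest of them by a small margin. The log2 change was -0.78 after 6.7 Gy (-1.26 to -0.31, adjusted p = 0.0349, limma), a 1.72-fold lower level, and -0.97 after 7.4 Gy (-1.44 to -0.49, adjusted p = 0.00603, limma), a 1.95-fold lower level. Replicate 1 of the 6.7 Gy group, at 1.86, stood apart from the other 3, and without it the change was -0.59 and did not pass (adjusted p = 0.113, limma). The 6.7 Gy change did not pass either without control replicate 2, 3 or 4, at -0.77, -0.68 and -0.75 (adjusted p = 0.0640, 0.0965 and 0.0777, limma). On days 7 and 12 the animals read between 2.98 and 3.85, which overlapped with the controls.

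CTNNB1 encodes beta-catenin, which links cadherins to alpha-catenin and also carries Wnt signals. Control values of 0.91, 0.99, 0.96 and 1.05 were close together (0.98 ± 0.06, SD, n = 4). Day-4 animals read 1.20, 1.38, 1.02 and 1.27 after 6.7 Gy and 1.16, 1.26, 0.99 and 1.01 after 7.4 Gy. Both groups overlapped with the controls, although 5 of their 8 animals were above the highest control. The log2 change was 0.24 after 6.7 Gy (-0.01 to 0.50, adjusted p = 0.218, limma) and 0.13 after 7.4 Gy (-0.13 to 0.38, adjusted p = 0.492, limma). A second CTNNB1 probe disagreed on the test but not on the direction: it was higher by 0.60 after 6.7 Gy (0.31 to 0.88, adjusted p = 0.0106, limma) and by 0.39 after 7.4 Gy, which did not pass (adjusted p = 0.0517, limma). On that probe all 8 day-4 animals, from -0.90 to -0.12, were above all controls, from -1.22 to -1.07. With the mean of both probes the change after 6.7 Gy was 0.42 and passed (adjusted p = 0.0197, limma).

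DSG2 encodes a desmosomal cadherin that simple epithelia also use. Controls read 0.72, 0.80, 0.92 and 0.97 (0.85 ± 0.11, SD, n = 4). Day-4 animals read 1.0, 0.31, 0.39 and 0.67 after 6.7 Gy and 0.41, 0.08, -0.13 and 0.06 after 7.4 Gy. One animal of the lower dose was above every control, and the higher dose did not overlap with the controls. The log2 change was -0.26 after 6.7 Gy (-0.62 to 0.10, adjusted p = 0.360, limma) and -0.75 after 7.4 Gy (-1.11 to -0.39, adjusted p = 0.00504, limma), a 1.68-fold lower level. Day-7 animals of both doses read between 0.66 and 1.09, and the 7.4 Gy day-12 animals lay far apart, at 0.49 and 1.24.

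The day-4 differences were also taken within array positions and scan days. Within position 1, which held all 4 controls and 2 of the 6.7 Gy arrays, the difference was -1.03 for OCLN, -1.19 for TJP3 and -0.96 for CGN. Within scan days, with 2 controls and 2 of the 6.7 Gy arrays on each, it was -0.93 on the first and -1.05 on the second for OCLN, -0.75 and -1.33 for TJP3, and -0.40 and -1.17 for CGN. On the 2 slides that held 1 array of each group it was -0.87 and -0.98 for OCLN, -0.85 and -0.65 for TJP3, and -0.11 and -0.69 for CGN. Of the 3, CGN varied most between batches. The second scan day held 2 controls and all 4 of the 7.4 Gy arrays. Within that day the 7.4 Gy difference was -1.24 for OCLN, -1.73 for TJP3, -1.17 for CGN, -0.64 for MARVELD2 and -0.84 for DSG2. On the 2 slides that held a control and a 7.4 Gy array it was -1.52 and -1.01 for OCLN, -2.19 and -1.10 for TJP3, -1.79 and -0.94 for CGN, -0.66 and -0.64 for MARVELD2, and -0.51 and -0.89 for DSG2. With position and scan day together as blocks, a fit chosen after the data were seen, 0 of 7 genes passed after 7.4 Gy, where the log2 changes were -1.72 for OCLN, -1.86 for TJP3, -1.73 for CGN, -0.95 for MARVELD2 and -0.64 for DSG2, and adjusted p ran from 0.0648 for OCLN to 0.509 for DSG2 (limma). No 7.4 Gy day-4 array shared a position with a control, so no difference within a position can be given for that dose. After 6.7 Gy, the fit with the methods' t-test, with slide as a block, or without control replicate 3 or 4, left OCLN alone past the test. The share of all named genes that passed in these fits was not counted.

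**Figure D2:**
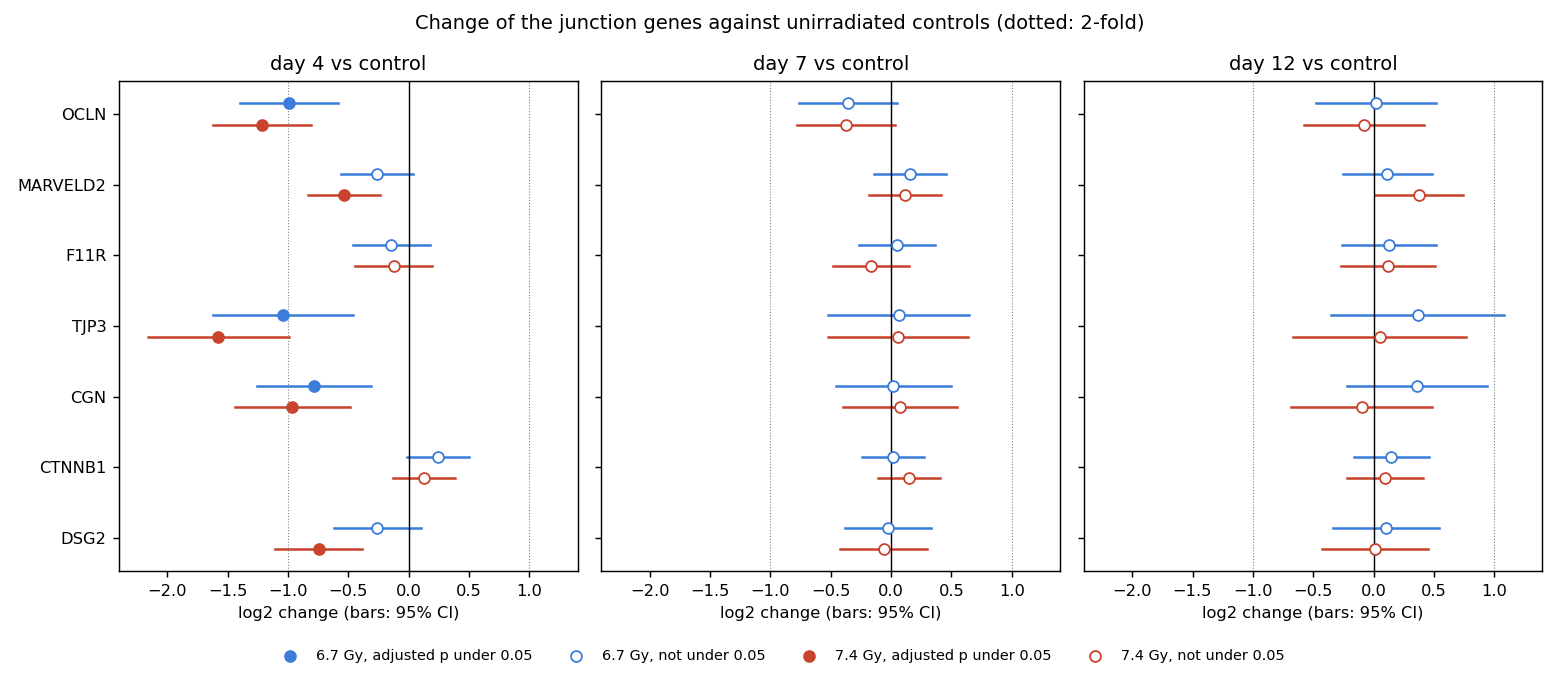
Log2 change of each junction gene against the 4 controls on days 4, 7 and 12, for 6.7 Gy and 7.4 Gy; bars are 95% confidence intervals from limma, filled points have an adjusted p under 0.05, and dotted lines mark 2-fold. The filled points are all on day 4 and to the left of 0: 3 after 6.7 Gy and 5 after 7.4 Gy.

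The doses did not differ by the test on any day. On day 4, 6 of 7 genes had a lower mean after 7.4 Gy than after 6.7 Gy, with a median difference of -0.23, but 0 of 7 passed, and the share over all named genes was 0%. The nearest to a difference was DSG2, at -0.49 (-0.85 to -0.13), with an adjusted p of 0.622 (limma). Of the 7 genes it alone had an unadjusted p under 0.05. The difference was -0.54 for TJP3 (-1.12 to 0.05), -0.28 for MARVELD2 (-0.58 to 0.02) and -0.23 for OCLN (-0.63 to 0.18). The last 3 intervals include 0, and dose differences smaller than such intervals were not detectable with 4 animals per group. On days 7 and 12, 0 of 7 passed between doses, with 0% of all named genes on both days. None of the 7 had an unadjusted p under 0.05 on those days. The change of the dose difference from day 4 to day 7 passed for 0 of 7 genes, against 0.00743% of all named genes. None of the 7 had an unadjusted p under 0.05 there either. For all these dose comparisons, the share of all named genes at an unadjusted p under 0.05 was not counted.

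Against the controls, 0 of 7 genes passed on day 7 after 6.7 Gy, where 0.468% of all named genes did, and 0 of 7 after 7.4 Gy, where 0.631% did. On day 12 the count was 0 of 7 after 6.7 Gy (0.0149% of all named genes), after 7.4 Gy (0.0223%) and with both doses pooled (0.0966%). At an unadjusted p under 0.05 the counts were 0 on day 7 at either dose and 0 on day 12 after 6.7 Gy. On day 12 they were 1 after 7.4 Gy, which was MARVELD2, and 0 with the doses pooled. The share of all named genes at that unadjusted threshold was not counted, so these counts cannot be read against it. The methods' t-test likewise passed 0 of 7 in these comparisons, with its share of all named genes not counted. With 2 animals per dose, the day-12 intervals were wide: that of TJP3 after 6.7 Gy ran from -0.35 to 1.08.

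Day 7 and day 4 were also compared directly, over both doses, with 8 animals on each side. OCLN, TJP3, CGN, MARVELD2 and DSG2 rose, which is 5 of 7 against 14.3% of all named genes that rose and 14.2% that fell. TJP3 rose by 1.37 on the log2 scale (0.96 to 1.78, adjusted p = 0.000102, limma) and was the 1 gene that was also 2-fold higher, against 5.05% of all named genes changed by as much. CGN rose by 0.92, OCLN by 0.74, MARVELD2 by 0.53 and DSG2 by 0.46, with adjusted p between 0.000487 and 0.00930 (limma). With spike-in scaling the DSG2 difference was 0.29 and did not pass (adjusted p = 0.121, limma). The day-7 and day-4 animals did not overlap for TJP3 and CGN, but did for the other 3. How many of all named genes did not overlap was not counted, here or against the controls. The difference was 0.08 for F11R (-0.15 to 0.30) and -0.10 for CTNNB1 (-0.29 to 0.08), and neither passed.

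From day 4 to day 12 the same 5 genes passed and were higher, against 13.2% of all named genes that rose and 13.1% that fell. OCLN, TJP3 and CGN, 3 of 7, were 2-fold higher, against 7.62% of all named genes. TJP3 rose by 1.52 (1.01 to 2.02), OCLN by 1.07 (0.72 to 1.43) and CGN by 1.01 (0.59 to 1.42), with adjusted p of 0.000259, 0.000230 and 0.00131 (limma). MARVELD2 rose by 0.64 and DSG2 by 0.56, and DSG2 no longer passed without replicate 2 of the 7.4 Gy day-12 group, at 0.38 (adjusted p = 0.0984, limma). Between days 7 and 12, 0 of 7 passed, against 0.156% of all named genes. None of the 7 had an unadjusted p under 0.05, a threshold at which the share of all named genes was not counted. OCLN was nearest, at 0.33 (-0.02 to 0.69). No array of days 7 or 12 shared a position with a day-4 array, so day and position cannot be told apart here, and comparisons that share the day-4 animals or the controls are not independent of each other.

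In order of mean level, OCLN, TJP3, CGN, MARVELD2 and DSG2 were each lowest at 7.4 Gy day 4 and next lowest at 6.7 Gy day 4, neighbours that did not differ by the test. The controls and the day-7 and day-12 groups followed in an order that changed from gene to gene, and no difference among them that was tested passed. F11R was lowest at 7.4 Gy day 7 and CTNNB1 in the controls, with no comparison past the test on the probes that stood for these genes. On its second probe CTNNB1 was higher than control on day 4 after 6.7 Gy, as given above, and lower on day 12 than on day 4, by -0.37 (adjusted p = 0.0272, limma).

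The colon RNA also changed in markers of some cell types on day 4. Of 12 epithelial marker genes tested, 6 fell after 6.7 Gy and 8 after 7.4 Gy, with median log2 changes of -0.49 and -0.84. VIL1, a microvillus protein, changed by -1.0 and -1.63, and EPCAM, an epithelial adhesion protein, by -0.68 and -0.92. The changes in the list ran from -1.21 to 0.03 after 6.7 Gy and from -1.63, that of VIL1, to 0.10 after 7.4 Gy. The summed signal of the list, in multiples of the array's 75th percentile, was 315.8 to 379.1 in the controls, 171.2 to 311.2 after 6.7 Gy and 193.2 to 304.8 after 7.4 Gy on day 4, 285.4 to 469.6 on day 7 and 324.6 to 359.4 on day 12. Of 9 genes of surface colonocytes, the mature absorptive cells, 5 fell after 6.7 Gy and 7 after 7.4 Gy, with a summed signal of 496.2 to 796.1 in the controls, 121.9 to 309.9 and 47.02 to 248.4 on day 4, 235.9 to 572.6 on day 7 and 585.8 to 691.7 on day 12. Of 8 fibroblast genes, 0 rose after 6.7 Gy and 5 after 7.4 Gy, with median log2 changes of 0.46 and 0.84. After 7.4 Gy the changes ran from -0.20 to 1.79, the highest that of COL1A2, a collagen chain. The summed signal of the fibroblast list was 208.6 to 388.5 in the controls, 275.3 to 301.2 after 6.7 Gy and 337.2 to 442.8 after 7.4 Gy on day 4, 226.2 to 319.0 on day 7 and 167.2 to 296.3 on day 12. Smooth muscle genes did not pass in either direction (0 of 5 at both doses). In other lists, 2 of 3 red blood cell genes fell at both doses, 2 of 8 proliferation genes rose after 6.7 Gy and 1 after 7.4 Gy, and 1 of 7 endothelial genes rose after 6.7 Gy and 2 after 7.4 Gy. After 7.4 Gy, 2 of 4 neutrophil genes rose and 1 fell, and 1 of 6 macrophage and monocyte genes rose. In the same comparison 1 of 8 T lymphocyte genes and 1 of 8 genes of enteric neurons and glia fell. Of 4 B lymphocyte genes, 0 passed at either dose. Beside these counts, 5.77% of all named genes fell and 5.45% rose after 6.7 Gy, and 11.6% fell and 10.8% rose after 7.4 Gy. After 7.4 Gy a count of 1 of 8 lies near those shares. Among the epithelial, surface colonocyte, fibroblast and smooth muscle genes, TMIGD1 was well above background on 21 arrays, PDGFRA on 23 and the others on all 24. The part of these cell types in the junction results was not tested.

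Set against the mean of the 12 epithelial genes on the same array, the junction genes took different values. On day 4 the distance of a gene from that mean, minus the same distance in the controls, was -0.53 after 6.7 Gy and -0.80 after 7.4 Gy for TJP3, -0.47 and -0.44 for OCLN, -0.27 and -0.19 for CGN, 0.26 and 0.24 for MARVELD2 and 0.26 and 0.03 for DSG2. In all of these the animals overlapped with the controls. For CTNNB1 it was 0.76 and 0.91, without overlap, and for F11R 0.37 with overlap and 0.66 without. The epithelial mean itself was 2.49 in the controls, 1.98 after 6.7 Gy and 1.71 after 7.4 Gy on day 4. A gene whose own level did not change therefore gains on this measure. How many of all named genes do so, or lie apart from the controls on this measure, was not counted. No test was run on these differences.

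**Figure D3:**
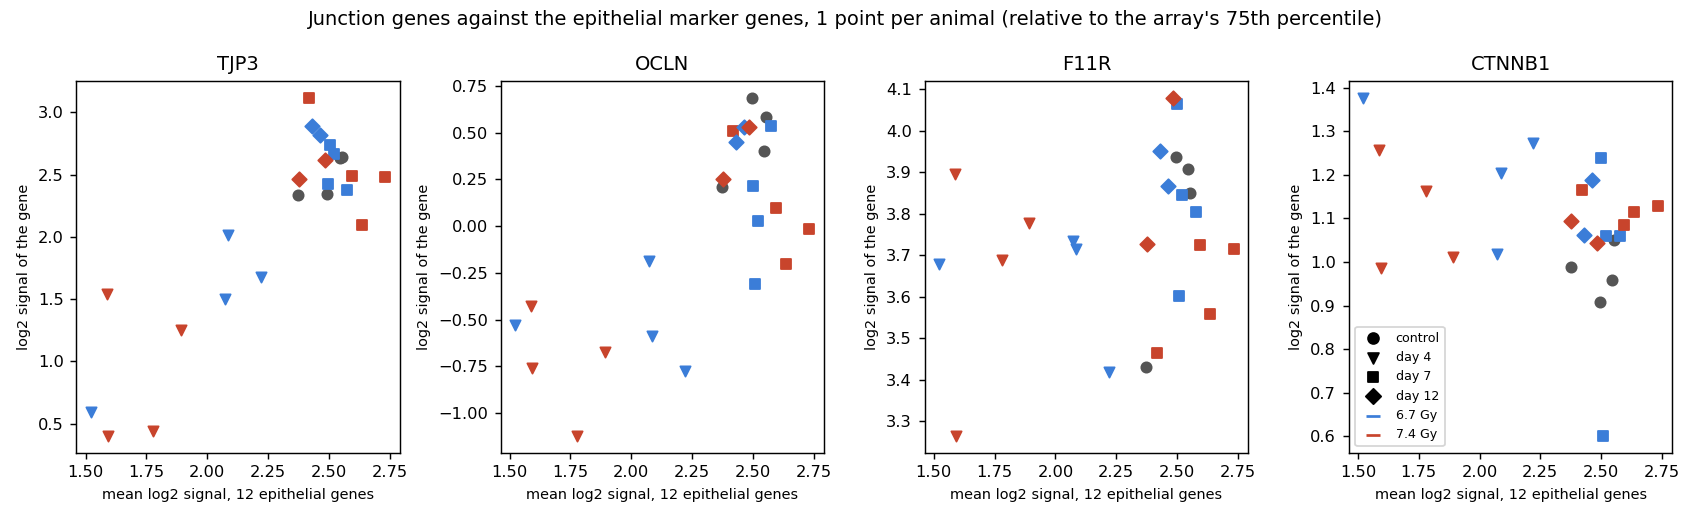
Log2 signal of TJP3, OCLN, F11R and CTNNB1 (y) against the mean log2 signal of 12 epithelial marker genes (x), both relative to the array's 75th percentile, 1 point per animal; colour gives the dose and shape the day. Day-4 animals lay to the left in all panels and low for TJP3 and OCLN, and not for F11R and CTNNB1.

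Over the 24 arrays, the Pearson correlation with the mean of the epithelial genes was 0.871 for TJP3, 0.789 for DSG2, 0.784 for MARVELD2, 0.742 for CGN, 0.721 for OCLN, 0.280 for F11R and -0.344 for CTNNB1. These values include the differences between groups. After the mean of each group was subtracted they were 0.385 for TJP3, 0.448 for DSG2, 0.233 for MARVELD2, -0.0764 for CGN, -0.143 for OCLN, 0.167 for F11R and -0.247 for CTNNB1. Between OCLN, TJP3 and CGN the values also fell within groups. OCLN and TJP3 correlated at 0.820, OCLN and CGN at 0.791 and TJP3 and CGN at 0.791, against 0.307, 0.317 and 0.161 within groups. With DSG2 the sign changed for OCLN, from 0.566 to -0.358, and for CGN, from 0.536 to -0.301. It did not for TJP3, at 0.775 and 0.326. CTNNB1 correlated with the other 6 between -0.289 and 0.0475, and within groups between -0.166, with DSG2, and 0.515, with MARVELD2.

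The named genes whose pattern over the 24 arrays was most like that of each junction gene were, for OCLN, VDR (0.944), CDA (0.940) and ENDOD1 (0.937). For TJP3 they were ETHE1 (0.960), C12H2orf88 (0.956) and NR3C2 (0.956), and for CGN C1H1orf56 (0.922), NUDT16 (0.897) and CNNM2 (0.895). MARVELD2 was nearest to OSBPL7 (0.900), CKMT2 (0.899) and SQRDL (0.884), and DSG2 to TMEM95 (0.817), RAB27A (0.812) and BEST2 (0.807). The highest values were lower for CTNNB1, with METAP1D (0.785), SLC44A5 (0.668) and KIAA1324L (0.666), and for F11R, with RALGAPB (0.745), STARD7 (0.739) and TAX1BP1 (0.737). All are Pearson correlations that include the differences between groups.

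Beyond the 7 genes, other junction genes were counted from lists of the 3 junction types. Of 29 other tight junction genes tested, 4 fell and 2 rose on day 4 after 6.7 Gy, beside 5.77% and 5.45% of all named genes, and 7 fell and 1 rose after 7.4 Gy, beside 11.6% and 10.8%. The log2 changes in this list ran from -1.58 to 0.90 after 7.4 Gy. CLDN2 and CLDN8, tight junction genes for which the paper reports larger changes in colon at that dose, lie outside this range. These counts do not cover them. The lowest of those past the test were the polarity scaffold PATJ, with log2 changes of -1.02 after 6.7 Gy (adjusted p = 0.0105) and -1.36 after 7.4 Gy (adjusted p = 0.000589), and CRB3, an apical polarity protein, with -1.0 (adjusted p = 0.00675) and -1.25 (adjusted p = 0.000518), all by limma. MAGI3, a membrane scaffold, fell by 0.81 after 6.7 Gy. PARD6A, another polarity protein, rose by 0.94 and 0.90, on a probe that was well above background on 19 of 24 arrays.

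Of 20 other adherens junction genes, 0 fell and 2 rose after 6.7 Gy, and 3 fell and 5 rose after 7.4 Gy. Beside these stand 5.77% and 5.45% of all named genes after 6.7 Gy and 11.6% and 10.8% after 7.4 Gy. NECTIN2, an immunoglobulin-like adhesion protein, rose by 0.49 at both doses. PKP4, a catenin-related protein, rose by 0.45 after 6.7 Gy. CDH11, a cadherin of mesenchymal cells, rose by 0.95 after 7.4 Gy (adjusted p = 0.000660, limma). Of 7 other desmosomal genes tested, 2 fell and 0 rose at each dose. DSP, which encodes desmoplakin and anchors keratin filaments, was the lower of them after 7.4 Gy, at -1.29 (adjusted p = 0.000488, limma), against -0.69 after 6.7 Gy.

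**Figure D4:**
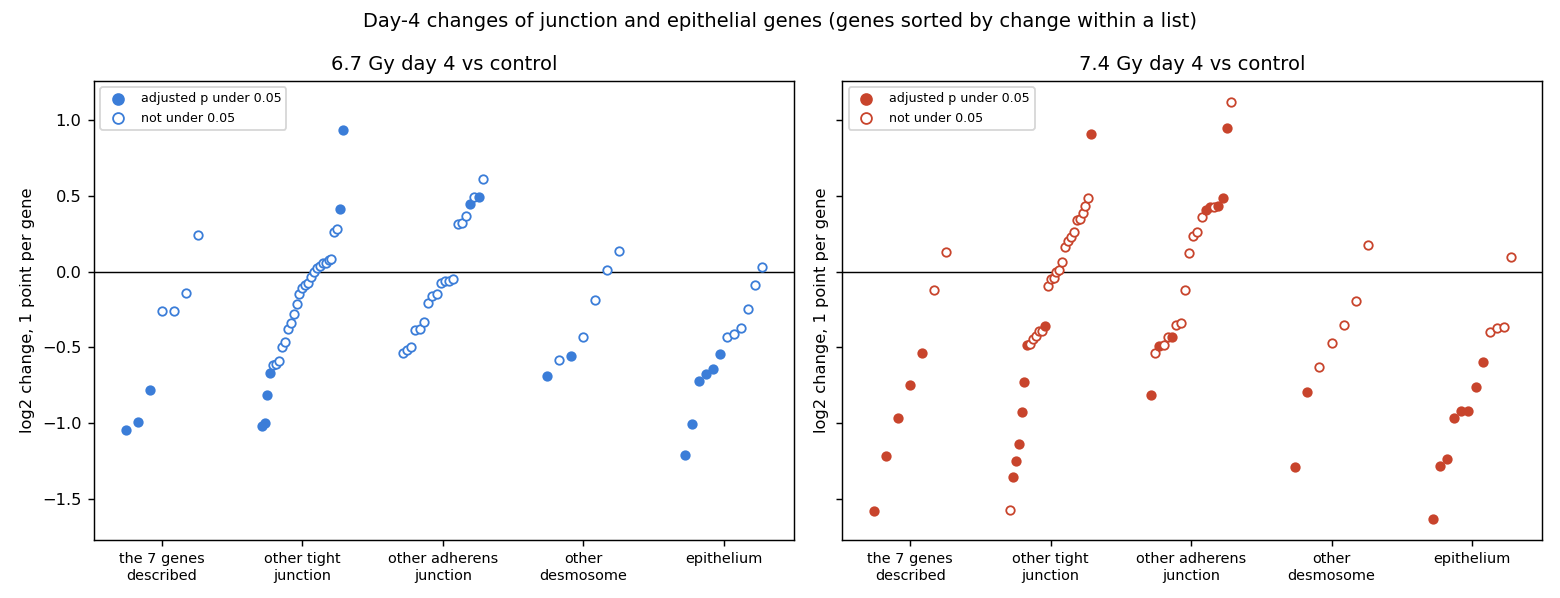
Log2 change on day 4 against the controls, 1 point per gene sorted by size within each list, after 6.7 Gy (left) and 7.4 Gy (right); filled points have an adjusted p under 0.05 (limma). After 7.4 Gy the filled points lie on both sides of 0 among the adherens junction genes (3 lower, 5 higher) and the other tight junction genes (7 lower, 1 higher). Among the 7 genes described, the desmosomal and the epithelial genes they lie below 0.

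From day 4 to day 7, 8 of 29 other tight junction genes rose and 3 fell, 6 of 20 adherens junction genes rose and 3 fell, and 2 of 7 desmosomal genes rose and 0 fell, beside 14.3% of all named genes that rose and 14.2% that fell. From day 4 to day 12 the counts were 8 and 2, 6 and 4, and 2 and 0, beside 13.2% and 13.1%.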

How the data were processed

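Colon RNA of 24 rhesus macaques was hybridised to 1-colour (Cy3) Agilent rhesus arrays, 1 animal per array. Per the file headers, the authors extracted intensity values with Agilent Feature Extraction, which subtracted background; these processed intensities were not normalized between arrays. The authors also deposited log2 values made in GeneSpring. That deposit supplied the gene symbols here, and its values were used only as an alternative setting. Another label gave a different last day than the sample labels, which were followed.

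Control spots and outlier spots were left out (0 outlier values in junction probes), spots of a probe were averaged, and each array's 75th percentile was subtracted from its log2 processed signal. Probes well above background on at least 2 arrays were tested. The probe with the highest mean stood for a gene. Group means were estimated jointly over the 24 arrays with limma 3.58.1 (R 4.3.3), with two-sided p-values adjusted by Benjamini-Hochberg over all probes, in 14 comparisons; scripts were tested on simulated data. All junction genes found are named, with the 3 highest and lowest other junction genes past the test per comparison with control, and the 3 genes most correlated with each. A gene that this rule selects is left out of the text. The genes and lists were chosen with earlier results of these data known. The number of animals limits the precision. Alternatives covered background correction, scaling, the authors' log2 values, filters, tests, blocks and leaving out each array.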

Additional observations from a re-analysis of the deposited data

Results flagged for a closer look

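A distant animal was looked for in 35 sets of 4 animals of 1 group and 1 junction gene, by its gap to the nearest of the other 3 as a share of the range of the group. Chance alone gives such a gap in about 1 of 20 sets, and 2 were found. CGN in replicate 1 of 6.7 Gy day 4 was 1.86, with the other 3 between 2.59 and 2.69. F11R in replicate 4 of the same group was 3.42, with the other 3 between 3.68 and 3.73.

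The difference between times after irradiation passed the test in limma for 5 genes. From day 4 to day 7 over both doses, the log2 difference was 0.74 for OCLN, 1.37 for TJP3, 0.92 for CGN, 0.53 for MARVELD2 and 0.46 for DSG2. From day 4 to day 12 it was 1.07 for OCLN, 1.52 for TJP3, 1.01 for CGN, 0.64 for MARVELD2 and 0.56 for DSG2.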

How the results depend on the processing

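No junction gene that passed changed its direction under any alternative run. The count after 7.4 Gy on day 4, 5 of 7, became 2 with spike-in scaling, 2 with the 2-fold requirement, 3 with the methods' t-test, 3 with array position as a block and 0 with position and scan day both as blocks (chosen after the data were seen). The count after 6.7 Gy on day 4, 3 of 7, became 1 with the groups compared alone, with the 2-fold requirement, with the methods' t-test and with slide as a block. With the 2-fold requirement the count from day 4 to day 7 was 1 and from day 4 to day 12 was 3, against 5 each. Leaving out 1 array gave 1 to 3 genes after 6.7 Gy on day 4 (1 without control replicate 3 or 4), 4 to 5 after 7.4 Gy, 5 from day 4 to day 7 and 4 to 5 from day 4 to day 12. Of 18 other settings, OCLN passed after 6.7 Gy in 17, TJP3 in 13 and CGN in 12, and after 7.4 Gy OCLN and TJP3 passed in 17, CGN and DSG2 in 14 and MARVELD2 in 11. Spike-in scaling moved the median of all genes on day 4 by 0.25 after 6.7 Gy and 0.28 after 7.4 Gy. For alternatives other than the 2-fold requirement, the share of all named genes that passed was not counted. These counts can therefore not be read against such a share. The causes were not tested.

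With replicate number as a block the counts stayed at 3 and 5 on day 4 and 5 and 5 for the later days against day 4, and no other count moved. Arrays with the same number in different groups correlated between -0.183 and 0.152 in their deviations over 30 same-numbered pairs, so the numbers did not pair the animals. With array position as a block, days 7 and 12 could not be compared with the controls or with day 4.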
